A study of Rattus norvegicus with 14 samples.

Results

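Most CpG-rich stretches of the rat oesophagus were unmethylated, and a minority of 1 kb tiles rich in CpG cytosines was methylated in every unoperated control library. These highly methylated CpG-rich tiles are described here. The genome was divided into tiles of 1 kb from position 1 of chromosomes 1 to 20. A cytosine was called listed where any library's file gave it. A tile belonged to the set if it had 40 or more listed cytosines and lay outside 20 kb windows with 5 or more tiles of 60 or more listed cytosines. It also needed at least 3 cytosines each present in 3 or more libraries of each group, and methylation of at least 70% in every control library with at least 15 summed reads. The rule found 2229 tiles among 64549 tiles with enough shared cytosines and among 13241 such tiles that were CpG-rich, so it took 16.8% of the CpG-rich tiles. Of the CpG-rich tiles, 8631 were under 20% in every control library. Methylation levels of the controls thus chose the tiles.

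Reduced representation bisulfite sequencing, which reads methylation at CpG cytosines near MspI cutting sites, was applied to oesophageal tissue of male rats aged 8 to 9 weeks with a surgical defect of the oesophagus that was repaired with a cell-free scaffold of bi-layer silk fibroin, and to unoperated rats. There were 4 libraries of neotissue taken where the graft had been placed, 1 week after the operation (week 1). A further 5 were of host tissue punched within 2 mm around the defect, 1 day after the operation (day 1), and 4 were of the full thickness of the oesophagus in non-surgical controls (NSC). Another week 1 sample was not analysed here. Time and tissue site changed together between week 1 and day 1, so their parts cannot be told apart, and in bulk tissue a change in the mix of cell types and a change within cells cannot be told apart either. Total reads over listed cytosines ran from 9676493 in day 1 replicate 2 to 49782600 in NSC replicate 1. Day 1 replicate 2 stood apart by depth: it gave a value for 325 of the 2229 tiles, against 1803 to 2213 tiles in the other 12 libraries.

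CpG islands are short stretches with many CpG dinucleotides, often at gene starts, and in somatic tissue most of them are kept free of methylation. A minority is methylated by the DNA methyltransferases, and methylation of an island at a gene start goes with a stably silent gene. The best known examples are promoters of genes that act only in germ cells, such as those of meiosis and of the piRNA pathway, which silences transposons. Islands inside genes and CpG-rich repeats, which are frequent near chromosome ends, can be methylated as well.

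The only named genes at these tiles came from promoters whose CpG spacing matched the pattern of listed cytosines. RefSeq promoters of the build GRCr8 were placed on the files' assembly, mRatBN7.2, in this way, since the builds differ and coordinates were not converted. Of 33469 promoters, 15918 had at least 8 CpG, 6268 matched exactly 1 position and 6205 of these lay on the chromosome that RefSeq gives. The promoters of 26 genes had at least 8 matched cytosines in a highly methylated tile, and 7 of them are shown because 6 carry names of a fixed germline list and 1 (Tuba3b, an alpha-tubulin gene) was picked after its values had been seen. Ddx4 encodes the germ-cell RNA helicase VASA, Dazl an RNA-binding protein of germ cells, Tdrd1 a Tudor protein of the piRNA pathway, Sycp1 and Sycp3 proteins of the synaptonemal complex of meiosis, and Smc1b the meiotic cohesin subunit. Each sequence is the 250 bases before the gene start in GRCr8, written in the direction of the gene, and capitals mark CpG that were listed on both strands or on one in any library.
Ddx4: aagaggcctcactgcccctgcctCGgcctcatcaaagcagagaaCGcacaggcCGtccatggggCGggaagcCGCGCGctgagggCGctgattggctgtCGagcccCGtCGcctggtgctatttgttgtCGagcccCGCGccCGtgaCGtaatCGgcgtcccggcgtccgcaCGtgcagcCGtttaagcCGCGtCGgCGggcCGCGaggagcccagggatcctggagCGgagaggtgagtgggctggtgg
Dazl: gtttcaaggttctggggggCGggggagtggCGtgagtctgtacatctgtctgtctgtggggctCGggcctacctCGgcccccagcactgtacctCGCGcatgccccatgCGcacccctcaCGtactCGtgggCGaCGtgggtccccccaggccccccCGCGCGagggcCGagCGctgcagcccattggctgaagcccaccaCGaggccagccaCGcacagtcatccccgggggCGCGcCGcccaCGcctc
Tdrd1: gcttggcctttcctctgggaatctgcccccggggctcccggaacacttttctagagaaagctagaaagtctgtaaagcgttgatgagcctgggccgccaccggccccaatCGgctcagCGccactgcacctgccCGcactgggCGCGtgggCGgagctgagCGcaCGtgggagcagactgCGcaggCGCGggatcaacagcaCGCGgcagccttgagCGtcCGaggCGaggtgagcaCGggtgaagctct
Sycp1: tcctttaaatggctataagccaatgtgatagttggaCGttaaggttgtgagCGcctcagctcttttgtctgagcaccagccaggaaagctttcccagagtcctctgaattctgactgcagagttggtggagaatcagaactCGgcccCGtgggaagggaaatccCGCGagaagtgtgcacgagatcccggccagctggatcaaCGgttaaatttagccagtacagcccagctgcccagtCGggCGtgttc
Sycp3: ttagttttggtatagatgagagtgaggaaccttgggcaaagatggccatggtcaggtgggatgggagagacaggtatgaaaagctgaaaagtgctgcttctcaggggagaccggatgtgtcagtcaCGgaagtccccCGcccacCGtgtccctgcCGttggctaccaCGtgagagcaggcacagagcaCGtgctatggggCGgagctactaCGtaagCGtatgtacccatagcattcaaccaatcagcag
Tuba3b: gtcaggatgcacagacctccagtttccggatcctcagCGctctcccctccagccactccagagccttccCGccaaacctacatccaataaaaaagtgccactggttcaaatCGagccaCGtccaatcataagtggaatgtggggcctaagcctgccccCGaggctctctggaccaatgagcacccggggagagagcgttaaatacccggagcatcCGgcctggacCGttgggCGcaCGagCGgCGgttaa
Smc1b: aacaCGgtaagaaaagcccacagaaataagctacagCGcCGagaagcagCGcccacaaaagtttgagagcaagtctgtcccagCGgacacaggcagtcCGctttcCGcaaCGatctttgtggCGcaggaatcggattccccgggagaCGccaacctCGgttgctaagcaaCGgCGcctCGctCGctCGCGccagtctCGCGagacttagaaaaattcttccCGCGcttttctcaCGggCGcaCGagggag
The stretches lie at chr2:46015952-46016201 on the minus strand for Ddx4, chr9:18193113-18193362 on the plus strand for Dazl, chr1:265880775-265881024 on the plus strand for Tdrd1, chr2:193145181-193145430 on the minus strand for Sycp1, chr7:24761226-24761475 on the plus strand for Sycp3, chr4:180319350-180319599 on the plus strand for Tuba3b and chr7:118122649-118122898 on the minus strand for Smc1b. Ddx4 held 30 CpG in these bases, of which 26 were listed, Smc1b 26 with 24 listed, Dazl 23 with 22 listed and Tdrd1 22 with 17 listed. Tuba3b held 15 CpG with 11 listed, Sycp1 11 with 9 listed and Sycp3 10 with 9 listed. The median over all 33469 promoters was 5 CpG in 250 bases. A placed promoter needed at least 16 matched cytosines, so the placing itself favoured counts above that median.

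A pair of letter patterns known in mouse as sites of repressors of germline promoters were searched on both strands of the 250 bases. The hexamer TCCCGC, bound by E2F6, or its reverse GCGGGA was in 15.96% of all promoters, in 13 of the 32 germline promoters of the table and in 4 of the 6 placed in a highly methylated tile (Ddx4, Tdrd1, Sycp1 and Smc1b). The E-box CACGTG, bound by MGA and MAX, was in 5.59% of all promoters, in 11 of 32 and in 3 of 6 (Ddx4, Tdrd1 and Sycp3). In Sycp3 it occurred at 2 places, starting 85 and 64 bases before the gene start. Both patterns contain a CpG, and a placed promoter needed at least 8 CpG, so these shares are not matched for CpG content. Smc1b is counted among the 6 although its own promoter was low in methylation, as given below. A match of letters is a description and not a binding site.

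Ddx4, Dazl, Sycp1, Sycp3 and Tuba3b were methylated in every library with at least 15 reads over the placed promoter, week 1 and day 1 included. These levels use every cytosine that a library listed, so libraries need not share cytosines. The cytosines present in 3 or more libraries of each group numbered 5 in Ddx4, 4 in Sycp1, 3 each in Tdrd1 and Tuba3b and 0 in Sycp3, Dazl and Smc1b. In Ddx4 the level was 96.4%, 100% and 94.2% in 3 week 1 libraries, 97.3%, 89.7%, 96.0% and 93.1% in 4 day 1 libraries and 84.9%, 90.8%, 87.0% and 93.7% in the NSC libraries. Over the promoter the week 1 libraries lay above all NSC libraries, and the day 1 libraries overlapped both groups. On the 5 used cytosines of the Ddx4 tile, means were 99.2% ± 1.37 in week 1 (n = 3), 97.8% ± 2.59 in day 1 (n = 4) and 87.2% ± 4.99 in NSC (n = 4). There all libraries of both post-operative groups lay above all NSC libraries. In Sycp3 the promoter level was 84.5% and 94.0% in 2 week 1 libraries, 86.1%, 90.3%, 83.0% and 84.9% in 4 day 1 libraries and 76.2%, 77.3%, 76.4% and 80.1% in the NSC libraries. Post-operative and NSC libraries do not overlap there but rest on different cytosines. The tile that holds 8 of its 20 matched cytosines had means of 92.0% ± 5.31 in week 1 (n = 3), 95.9% ± 3.51 in day 1 (n = 5) and 95.8% ± 3.29 in NSC (n = 4), and the medians over its CpG with 20 pooled reads were 81.4% in week 1 (2 CpG), 84.8% in day 1 (6) and 96.1% in NSC (9). No order of the groups is therefore read from Sycp3. In Sycp1 it was 82.8%, 100% and 93.3% in week 1, 84.9%, 90.5%, 92.8% and 90.7% in day 1 and 90%, 89.1%, 84.1% and 91.6% in NSC, and the groups overlapped. Dazl was read in 1 week 1 library at 82.9%, with 35 reads, in 2 day 1 libraries at 100% each and in 4 NSC libraries at 91.3% to 98.0%.

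Tdrd1 varied most among the germline promoters placed in these tiles. Its level was 84.7%, 43.6%, 80.8% and 88.7% in the week 1 libraries, 91.6%, 62.7%, 88.6% and 91.7% in 4 day 1 libraries and 88.3%, 82.0%, 90.9% and 95.8% in the NSC libraries. A single library in each post-operative group (week 1 replicate 2 and day 1 replicate 3) was lower than all others, and the groups overlapped. The tile rested on 3 cytosines. Tuba3b had 96.2%, 84.2% and 98.4% in 3 week 1 libraries, 100%, 84.2%, 88.6% and 100% in 4 day 1 libraries and 97.1%, 95.2%, 93.2% and 98.1% in NSC libraries, which overlapped.

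The placed promoters also show where the name of the set fails. The promoter of Smc1b was low, at 6.1% and 14.6% in 2 week 1 libraries, 18.8%, 10.8%, 13.1% and 3.9% in 4 day 1 libraries and 7.0%, 4.3%, 9.7% and 4.1% in NSC libraries. The overlapping promoter of Ribc2 on the other strand was at 18.2% and 25.8% in 2 week 1 libraries. It was at 20.1%, 56.1% (41 reads), 9.4%, 19.9% and 21.8% in 5 day 1 libraries and at 8.0%, 4.5%, 9.6% and 7.6% in NSC libraries. Day 1 and NSC overlapped there, and week 1 lay above NSC. The Ribc2 promoter had 0 cytosines present in 3 or more libraries of each group, so no order of the groups is read from it. The tile around both, chr7:116242001-116243000, met the rule because only 3 of its 102 listed cytosines had enough libraries, and those were at 97.1% ± 3.39 in NSC (SD, n = 4). Dennd6a, a gene of membrane traffic in the endocytic pathway, was alike: its pooled promoter reads were methylated at 0% in week 1, 0.16% in day 1 and 0.279% in NSC, beside 5 cytosines of the tile at 91.7% in NSC. Of the 26 genes, 20 had a promoter at 70% or more in pooled NSC reads, 3 lay between 20% and 70% and 3 were under 20%. The 20 had median pooled levels of 91.4% in week 1, 93.3% in day 1 and 87.8% in NSC.

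**Figure D1:**
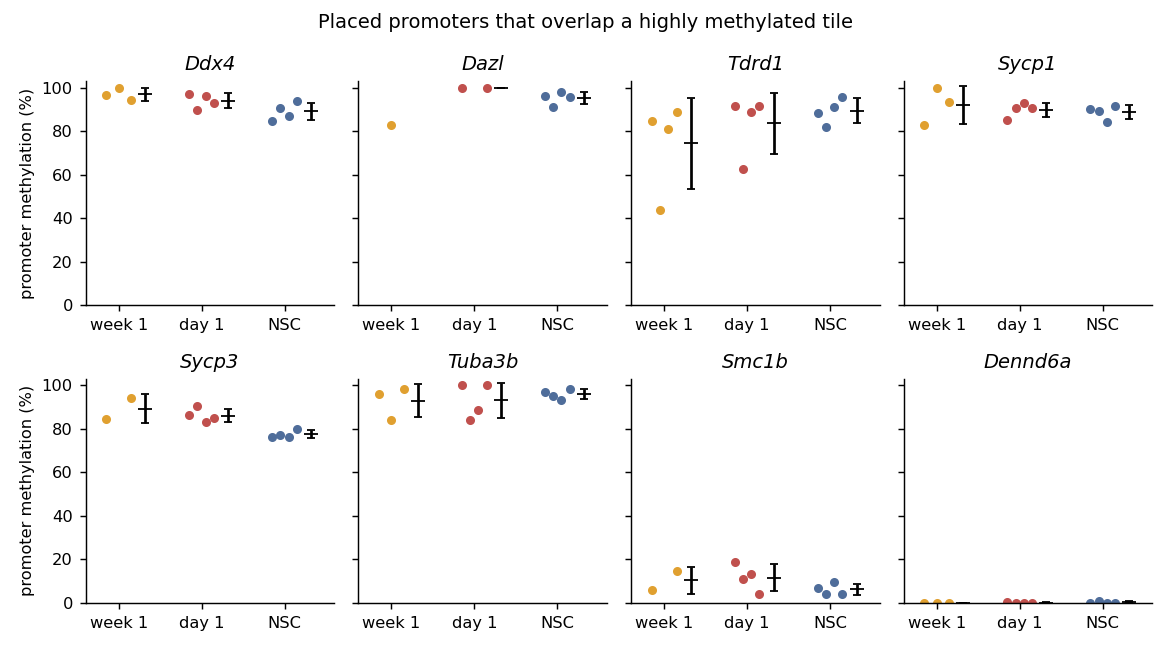
Methylation in percent (vertical axis) of placed promoters that overlap a highly methylated tile, by group (horizontal axis, left to right week 1, day 1, NSC). Points are libraries with at least 15 reads over the promoter and bars are the mean ± SD where 2 or more libraries had a value. Ddx4, Dazl, Sycp1, Sycp3 and Tuba3b stay high in every group, Tdrd1 has 1 low library in each post-operative group, and Smc1b and Dennd6a are low.

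The whole set was checked in the same way. Over every listed cytosine, and not only the cytosines used by the rule, the median tile was at 91.1% in week 1, 92.5% in day 1 and 88.2% in NSC. In NSC 63 of 2229 tiles (2.83%) then fell under 70%, 15 under 50% and 0 under 20%. Single cytosines were judged only where they had at least 20 pooled NSC reads, which left 46048 in the set. Among these, 44 tiles (1.97%) had at least 3 cytosines under 20% and at least 3 at 70% or more. In 1933 tiles (86.7%) no such cytosine was under 20%. Listed cytosines with fewer reads were not judged singly. By these measures the name held for most tiles, and the values for Smc1b belong to the mixed minority.

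Germline genes were among those with placed promoters at 70% or more in NSC. The germline list had 39 names, of which 32 were in the promoter table, 11 were placed and 10 had at least 30 NSC reads. Of these 10, 7 were at 70% or more in NSC, against 148 of 5633 (2.63%) of all placed promoters with that many reads. The 7 were Tdrd1, Ddx4, Sycp1, Sycp3, Dazl, Stk31 (a kinase of spermatogenic cells) and Tex19.1 (a gene of germ cells and placenta). The last pair lay outside the set, at 96.1% and 98.1% in week 1, 97.6% and 93.8% in day 1 and 96.6% and 97.0% in NSC (pooled reads, Stk31 and then Tex19.1). The other 3 were Piwil1, a piRNA-binding protein, at 66.7% in week 1, 61.6% in day 1 and 55.9% in NSC, Stag3, a meiotic cohesin subunit, at 40.1%, 31.0% and 32.8% in the same order, and Smc1b. Of 37 placed promoters of developmental regulators (Hox, Pax, Sox, Fox, Gata and related families) 0 were at 70% or more and 35 were under 20%. The counts were 0 of 4 for imprinted genes and 0 of 1 for protocadherins, too few to compare, and no difference between lists was tested.

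Cell type markers could be followed at 4 promoters, none of them in the set. Of 15 names of squamous epithelium 2 were placed: Krt4, a keratin of the suprabasal layers, ran from 93.2% to 94.5% in 3 week 1 libraries, from 73.1% to 94.7% in 3 day 1 libraries and from 24.3% to 74.2% in 4 NSC libraries, and Sox2 was at 0% in all groups. Day 1 and NSC overlapped in Krt4. Of 12 muscle names 2 were placed. Des (desmin) ran from 11.5% to 15% in 2 week 1 libraries (53 pooled reads), from 16.7% to 23.9% in 2 day 1 libraries (75) and from 0% to 1.74% in 4 NSC libraries (244). Actn3 was at 0% in 1 week 1 library with 21 reads, at 0% to 16.7% in 3 day 1 libraries and at 0% in 3 NSC libraries. None of 11 leukocyte names and none of 7 names of fibroblasts and vessels was placed. These values were not tested between groups, and the part of cell types in the levels described next was not tested.

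The tiles were highly methylated in all 3 groups, with little room above. The median over tiles was 92.6%, 93.2%, 91.8% and 93.0% in the 4 week 1 libraries, 94.6%, 92.0%, 93.9%, 94.4% and 93.2% in the 5 day 1 libraries and 89.6%, 90.8%, 90.7% and 90.9% in the 4 NSC libraries. Every week 1 and day 1 library lay above every NSC library, and week 1 and day 1 overlapped. Group means of these medians were 92.7% ± 0.646 in week 1 (SD, n = 4), 93.6% ± 1.05 in day 1 (n = 5) and 90.5% ± 0.597 in NSC (n = 4). Since coverage chose different tiles in each library, the same 1276 tiles were compared over the 12 libraries without day 1 replicate 2. There the means were 92.0% ± 0.664 in week 1, 93.4% ± 0.680 in day 1 and 89.7% ± 0.487 in NSC (n = 4 each). In the 261 tiles read in all 13 libraries they were 89.0%, 90.7% and 87.7% in the same order. Depth also differed between groups. With each cytosine thinned to 5 reads the median difference was 1.43 points for week 1 minus NSC, beside 1.23 with all reads, and 2.86 points for day 1 minus NSC, beside 2.83. The part of depth beyond that was not tested.

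**Figure D2:**
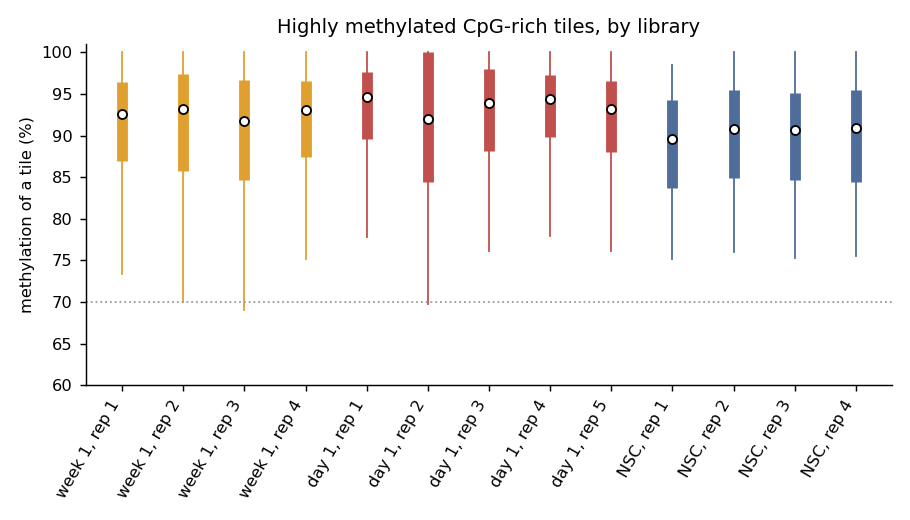
Methylation in percent (vertical axis, from 60) of the highly methylated CpG-rich tiles in each library (horizontal axis). White points are medians, thick bars run from the 25th to the 75th percentile and thin lines from the 5th to the 95th, and the dotted line marks the 70% of the rule. NSC medians, 89.6% to 90.9%, are all below the week 1 and day 1 medians.

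Single cytosines gave the same order of groups. Of cytosines in the set with at least 20 pooled reads, 65.4% were at 90% or more in week 1, 72.5% in day 1 and 59.5% in NSC. Cytosines under 20% made up 0.577%, 0.636% and 0.460% in that order. The signed difference between the strands of a CpG had a median of 0 in each group, and its size had a median of 5.41 points in week 1 (1243 CpG), 4.06 in day 1 (1324) and 4.55 in NSC (1331). Libraries of 1 group differed by a median SD of 4.53 points per tile in week 1, 3.71 in day 1 and 4.00 in NSC, against 5.53, 4.84 and 5.25 over all tiles.

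Coverage in week 1 and day 1 entered the choice of the tiles, but their methylation levels did not, so their comparison is the one that can be tested. It asks whether graft tissue at 1 week and the wound margin at 1 day differ at these tiles. With edgeR's quasi-likelihood test on methylated and unmethylated counts over all 64549 tiles, a call required 10 points between group means and an adjusted p (Benjamini-Hochberg) below 0.05. By this rule 0 tiles of the set were called, and 0% of all tiles. At an unadjusted p below 0.05 there were 6.01% of the tiles of the set, against 6.19% of all tiles. With limma on the percent values 0 were called, and 158 (7.09%) had an unadjusted p below 0.05, against 7.5% of all tiles. The smallest adjusted p in the set was 0.557 in edgeR, and missing the threshold does not show that the levels were equal.

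Although no tile was called, week 1 was on balance slightly lower than day 1. The median difference of week 1 minus day 1 was -1.29 points over the set, with 35.3% of tiles higher in week 1, against -0.81 points over all tiles. In methylated tiles chosen by the same rule but with fewer listed cytosines the median was -1.38 points for 20 to 39 listed, -1.59 for 10 to 19 and -1.74 for 3 to 9. After each library was centred on its median over all tiles the median for the set turned to 1.71 points, so the direction holds only for uncentred levels. Groups did not overlap in 98 of 2203 tiles with week 1 lower (4.45%, background 3.82%) and in 20 with week 1 higher (0.908%, background 1.27%).

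The tiles with the largest differences among the 147 read at least 30 times in every library show the size of the spread. At chr4:619001-620000 the level was 79.9%, 82.6%, 68.4% and 79.0% in week 1 and 83.4%, 88.2%, 94.0%, 89.4% and 86.8% in day 1, a difference of -10.9 points (adjusted p = 0.793, edgeR). All week 1 libraries lay below all day 1 libraries. At chr3:160573001-160574000 it was 79.7%, 80.4%, 90.2% and 80.2% in week 1 and 89.9%, 91.7%, 94.4%, 94.9% and 93.8% in day 1, a difference of -10.3 points (adjusted p = 0.764, edgeR), where 1 week 1 library reached the day 1 range. In the other direction chr17:68202001-68203000 had 96.9%, 100%, 89.4% and 94.9% in week 1 and 93.2%, 73.3%, 85.2%, 93.0% and 89.1% in day 1, a difference of 8.54 points (adjusted p = 0.811, edgeR), and the groups overlapped. These tiles were chosen for their differences, which are therefore a description.

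The most deeply read tile gave closely spaced values, but its depth is far from that of the set. Reads per used cytosine had a 95th percentile of 27.6 in the set and a highest value of 703. Whether reads of several copies of a sequence were joined in such a tile was not tested. At chr14:46237001-46238000, with 49 cytosines used and 16679 to 58953 summed reads per library, the level was 89.0%, 89.9%, 88.6% and 90.1% in week 1, 91.0%, 90.8%, 90.4%, 90.9% and 91.0% in day 1 and 87.3%, 86.9%, 87.7% and 86.8% in NSC. The 3 groups were separate, with week 1 between the others. The difference of week 1 minus day 1 was -1.40 points. A two-sided exact permutation gave p = 0.0159, which is the lowest value that 4 against 5 libraries allow, while the edgeR adjusted p was 0.749. The next deepest tile, chr14:46241001-46242000, gave 87.4%, 88.1%, 87.3% and 88.6% in week 1, 89.6%, 89.5%, 89.1%, 88.9% and 88.2% in day 1 and 86.3%, 86.7%, 87.1% and 86.4% in NSC. There the difference was -1.22 points (exact permutation p = 0.0317, edgeR adjusted p = 0.885), and 1 library of each overlapped. The third, chr2:938001-939000, had means of 86.7% ± 1.78 in week 1 (n = 4) and 87.8% ± 1.139 in day 1 (n = 5), with an exact permutation p of 0.349. Exact tests of week 1 against day 1 were computed for all 33 tiles reached by the rules for names, 30 of them in the set, and 20 of the 33 had been picked with week 1 or day 1 levels. Of the 33, 6 had an exact permutation p below 0.05 and 0 after Benjamini-Hochberg adjustment over all of them, where the lowest value was 0.175, the adjusted p of both chromosome 14 tiles.

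The 4 tiles with most listed cytosines did not behave alike. Adjacent tiles on chromosome 6, chr6:126838001-126839000 with 125 listed and chr6:126837001-126838000 with 120, were at 91.6% and 95.4% in week 1, 93.9% and 97.2% in day 1 and 94.9% and 97.2% in NSC. At chr14:31296001-31297000, with 107 listed, means were 87.9% in week 1, 79.6% in day 1 and 81.3% in NSC. At chr5:56659001-56660000, with 119 listed and 8 used, the level was 18.2%, 36.8%, 22.1% and 9.2% in week 1, 27.97%, 29.4% and 36.6% in 3 day 1 libraries and 74.6%, 98.6%, 78.2% and 89.7% in NSC. Every post-operative library of that tile lay far below every NSC library.

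Against NSC the set can only be described, because NSC values chose it. The median difference was 1.23 points for week 1 minus NSC, with 61.7% of tiles higher, and 2.83 points for day 1 minus NSC, with 75.7% higher. Over all tiles the medians were 1.68 and 3.39 points. After centring each library on its median over all tiles they turned to -5.19 and -6.60 points for the set. For week 1 minus NSC 31 tiles of the set were called (background 4.77%), 15 of them higher (background 3.48%) and 16 lower (background 1.29%). For day 1 minus NSC 75 were called (background 9.05%), 51 of them higher (background 7.19%) and 24 lower (background 1.86%). Single libraries moved these counts by more than 1.5 times. For week 1 they fell to 15 and 19 without week 1 replicates 4 and 2, and to 17, 18, 17 and 19 without NSC replicates 1, 2, 3 and 4. For day 1 they fell to 37 and 42 without day 1 replicates 1 and 4, and to 44 and 45 without NSC replicates 1 and 3. Without centring, limma called 49 higher (background 6.35%) and 23 lower (background 1.82%) for week 1, and 84 higher (background 10%) and 25 lower (background 2.14%) for day 1. After centring, limma called 2 higher (background 3.05%) and 76 lower (background 4.07%) for week 1, and 0 higher (background 4.67%) and 305 lower (background 15.1%) for day 1. Groups did not overlap in 167 of 2209 tiles with week 1 higher (background 13%) and in 53 with week 1 lower (background 3.78%), and in 299 of 2223 with day 1 higher (background 17.3%) and 47 with day 1 lower (background 3.29%). The other density classes of the same rule had medians of 0.736 to 1.31 points for week 1 and 2.57 to 2.90 points for day 1.

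**Figure D3:**
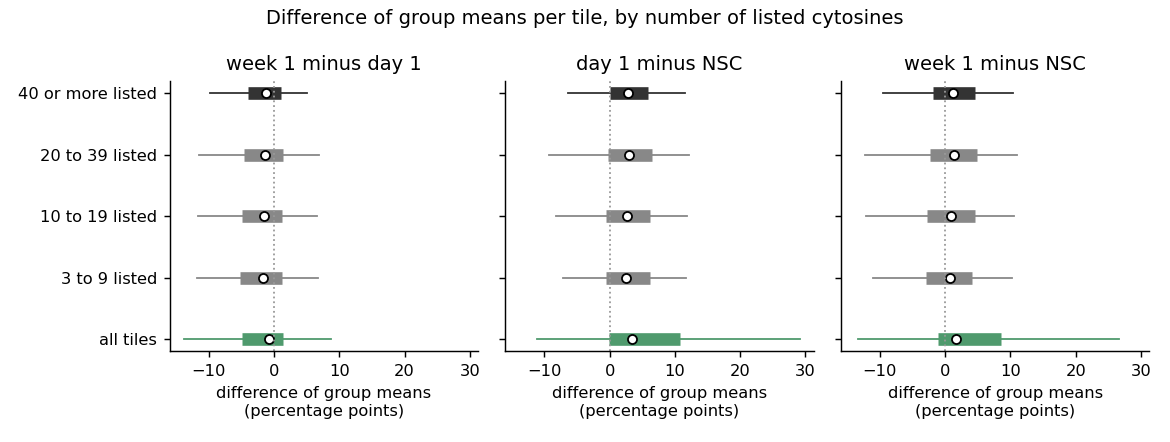
Difference of group means per tile in percentage points (horizontal axis) for 3 contrasts, in tiles at 70% or more in NSC grouped by the number of listed cytosines and in all tiles (vertical axis). White points are medians, thick bars run from the 25th to the 75th percentile and thin lines from the 5th to the 95th. For week 1 minus day 1 the medians run from -1.74 to -0.81 points.

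The week 1 mean was at least 20 points below NSC in 37 tiles (1.66% of the set, against 2.91% of all tiles), and the day 1 mean in 37 (1.66%, against 2.84%). A mean at least 20 points above NSC was found in 1 tile of the set for week 1 and 2 for day 1. Over all 64549 tiles the numbers were 5776 and 7031. The rule of 70% or more in NSC left little room for such gains in the set. The strongest losses among the 848 tiles with 30 reads in the 12 libraries other than day 1 replicate 2 were chosen after their values had been seen. At chr20:27351001-27352000 the level was 45.7%, 57.9%, 40% and 44.9% in week 1, 32.8%, 23.8%, 32.1% and 52.3% in 4 day 1 libraries and 91.9%, 81.6%, 81.2% and 90.1% in NSC. Neither post-operative group reached the NSC range. That tile rested on 6 used cytosines, of which 5 were lower than NSC in each post-operative group. Pooled over every listed cytosine, it was at 53.3% in week 1, 53.0% in day 1 and 89.3% in NSC, so the loss was smaller. At chr14:98087001-98088000 the level over used cytosines was 60%, 59.2%, 69.9% and 48.6% in week 1, 29.0%, 31.1%, 25.3% and 44.2% in day 1 and 73.7%, 78.0%, 84.2% and 78.8% in NSC. The 3 groups of that tile were separate, with week 1 between day 1 and NSC. Week 1 was 27.0 points above day 1 there (adjusted p = 0.749, edgeR), and 11 of its 11 cytosines were lower in day 1 than in NSC. Pooled over every listed cytosine, that tile was at 50.4% in week 1, 32.2% in day 1 and 78.2% in NSC. The difference between week 1 and day 1 was thus smaller.

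At other tiles the losses were smaller. At chr20:28710001-28711000 the mean was 58.6% ± 10.4 in week 1, 57.1% ± 12.3 in day 1 and 88.2% ± 2.79 in NSC (n = 4 each). At chr4:158356001-158357000 the level was 61.0%, 54.3%, 52.7% and 43.3% in week 1, 47.9%, 69.9%, 54.5%, 56.5% and 66.6% in day 1 and 80%, 75.4%, 74.1% and 84.4% in NSC. At chr13:31162001-31163000 it was 82.1%, 72.3%, 57.8% and 61.4% in week 1, 57.4%, 69.4%, 63.9%, 61.7% and 81.6% in day 1 and 89.8%, 83.8%, 83.1% and 93.5% in NSC. In both tiles all post-operative libraries lay below the lowest NSC library. The rule that named them required groups that do not overlap, so this separation was set in advance. At chr3:33829001-33830000 the mean was 63.5% ± 6.91 in week 1, 55.7% ± 7.81 in day 1 and 83.8% ± 2.50 in NSC (n = 4 each). At chr3:17179001-17180000 the libraries differed widely, from 66.5% to 90% in week 1 and from 44.0% to 82.5% in 4 day 1 libraries, against 94.3% to 96.3% in NSC.

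Gains had less room than losses, since the rule set NSC at 70% or more. At chr12:25192001-25193000 the level was 87.7%, 89.3%, 94.4% and 89.6% in week 1, 93.2%, 87.5%, 86.6%, 90.4% and 83.0% in day 1 and 71.8%, 74.4%, 76.2% and 71.6% in NSC. At chr6:40581001-40582000 it was 93.3%, 92.8%, 89.6% and 92.5% in week 1, 93.7%, 88.4%, 93.1%, 92.9% and 89.2% in day 1 and 82.1%, 82.4%, 80.6% and 82.1% in NSC. The post-operative libraries of both tiles lay above all NSC libraries. The rule for names required that separation, except for day 1 at the chromosome 6 tile. At chr18:14734001-14735000, named after its values were seen, the level was 91.8%, 97.1%, 79.5% and 91.7% in week 1, 94.0%, 90.9%, 90% and 90% in 4 day 1 libraries and 74.8%, 70.7%, 71.3% and 74.5% in NSC. At chr12:1392001-1393000, likewise, it was 91.3%, 96.4%, 92.6% and 94.6% in week 1, 93.4%, 91.2%, 97.6% and 94.6% in 4 day 1 libraries and 73.3%, 75.8%, 70.1% and 87.9% in NSC. All post-operative libraries of both lay above the NSC libraries. At chr1:78727001-78728000 the means were 95.6% ± 2.29 in week 1, 91.0% ± 4.61 in day 1 and 78.1% ± 4.07 in NSC (n = 4 each). At chr6:12947001-12948000 and chr17:13265001-13266000, also chosen afterwards, 4 day 1 libraries lay above all others. Their means were 78.0% and 78.0% in week 1, 92.9% and 93.6% in day 1 and 77.5% and 80.9% in NSC. Their adjusted p for week 1 against day 1 was 0.756 in edgeR for each. Pooled over every listed cytosine, they were at 78.0% and 74.7% in week 1, 93.8% and 82.1% in day 1 and 81.9% and 71.3% in NSC. The difference between week 1 and day 1 was thus smaller at the chromosome 17 tile.

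**Figure D4:**
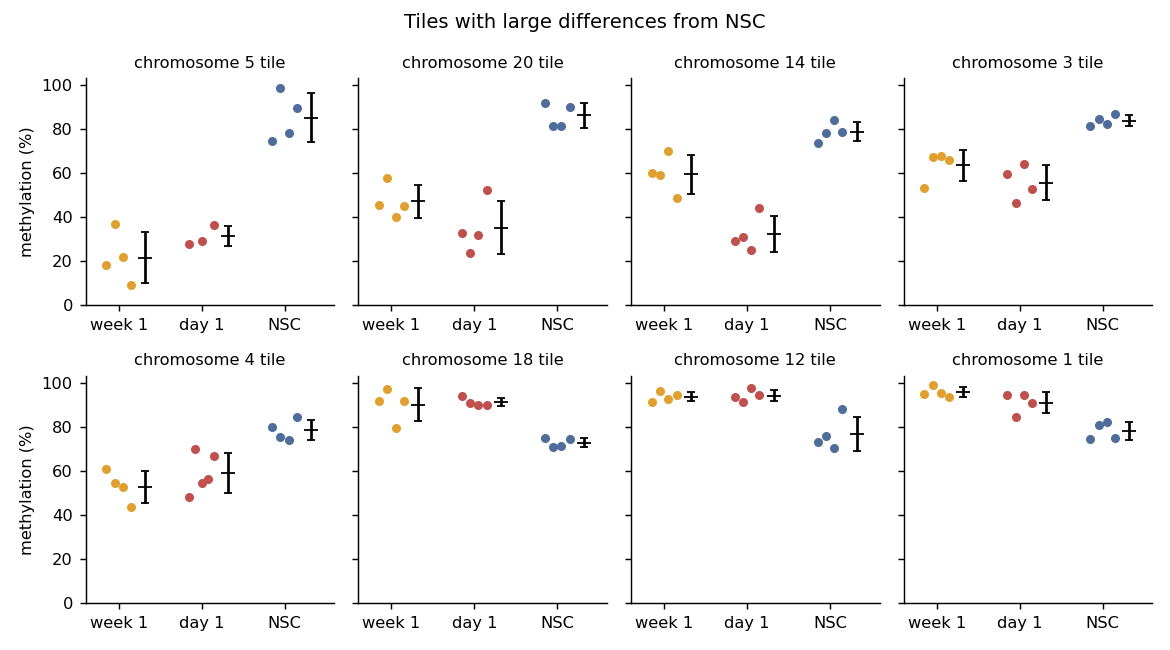
Methylation in percent (vertical axis) of 8 highly methylated CpG-rich tiles with large differences from NSC, by group (horizontal axis, left to right week 1, day 1, NSC). Points are libraries with at least 15 summed reads and bars are the mean ± SD. For each chromosome 1 tile is drawn, by the sum of both differences from NSC. The tiles on chromosomes 5, 20, 14, 3 and 4 are lower in both post-operative groups, and those on chromosomes 18, 12 and 1 are higher.

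The surroundings of the tiles were methylated too. The 1 kb tile before was measured for 422 tiles of the set, with median levels of 89.6% in week 1, 91.5% in day 1 and 85.9% in NSC, and 12 of the 422 were under 20% in NSC. The tile after was measured for 386, with medians of 88.2%, 89.9% and 84.5% in the same order, and 15 were under 20%. Methylated tiles with 3 to 9 listed cytosines had similar surroundings. Their tiles before had medians of 88.6% in week 1, 90.3% in day 1 and 85.3% in NSC, and 4.17% were under 20% in NSC. Their tiles after had 88.8%, 90.6% and 85.9% in the same order, and 2.63% were under 20%. Beside CpG-rich tiles under 20% in every NSC library, 86.0% of the tiles before and 86.1% of the tiles after were under 20%. The set had a median of 46 listed cytosines per tile, against 66 in those unmethylated tiles, and 6 cytosines used, against 10. Reads per used cytosine had a median of 12.7 in the set and 13.1 over all tiles.

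The tiles were spread over all chromosomes in unequal shares. They made up 23.9% of CpG-rich tiles on chromosome 20 and 23.4% on chromosome 12, against 10.6% on chromosome 10 and 12.7% on chromosome 1. Within 5 Mb of position 1 or of the last listed cytosine of a chromosome lay 14.4% of the set, against 9.45% of unmethylated CpG-rich tiles and 9.71% of all tiles. Only 175 tiles of the set had another one beside them, and the longest run was 5 tiles. The densest 20 kb window, chr19:22740001-22760000, held 13 tiles with median levels of 83.2% in week 1, 86.1% in day 1 and 81.3% in NSC. The window chr14:46240001-46260000 held 6, with 85.4%, 88.8% and 82.9% in the same order. No gene was assigned to these windows here.

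**Figure D5:**
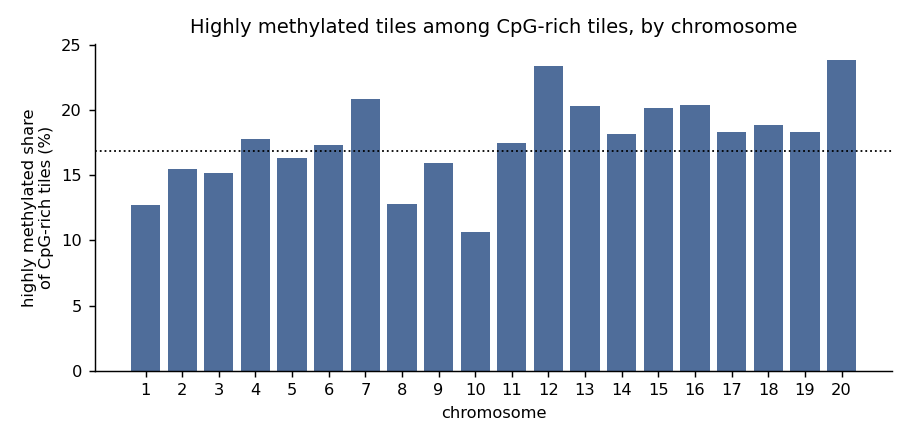
Share of CpG-rich tiles that are highly methylated in NSC, in percent (vertical axis, from 0), for chromosomes 1 to 20 (horizontal axis). The dotted line is the share over all chromosomes, 16.8%, and the bars run from 10.6% on chromosome 10 to 23.9% on chromosome 20.

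A part of the set shared its CpG pattern with other tiles. Of 1806 tiles with 8 fully listed CpG in a row, 87 (4.82%) had the same spacing as another tile, against 114 of 6832 (1.67%) unmethylated CpG-rich tiles and 19 of 1911 (0.994%) other CpG-rich tiles. The 87 had median levels of 88.9% in week 1, 90.8% in day 1 and 86.9% in NSC, beside 92.2%, 93.8% and 90.3% in the rest of the set. Reads of near-identical sequences can be split among them, so their single values are uncertain. The median difference of week 1 minus day 1 was -1.29 points in both.

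The thresholds cut through a continuous range. There were 224 tiles with exactly 40 listed cytosines and 222 tiles with 39 that met the rest of the rule. The lowest NSC library lay from 70% to 71% in 47 tiles of the set and from 69% to 70% in 46 CpG-rich tiles just outside. Just inside, chr1:206846001-206847000 had a lowest NSC library of 70% and means of 94.6% in week 1, 95.9% in day 1 and 80.2% in NSC. Just outside, chr3:114586001-114587000 had a lowest NSC library of 69.96% and means of 64.6%, 66.8% and 74.2% in the same order.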

How the data were processed

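Per the labels' protocols, MspI digestion was followed by bead removal of fragments longer than 300 bp and by bisulfite conversion. Per the submitters' processing notes, the tools were Bismark 0.23.0, methylKit 1.14.2, FastQC and Trim Galore, and the assembly was mRatBN7.2. The deposited files give, for each CpG cytosine, a methylated read count, a total read count and a methylation percent, and list only cytosines with at least 5 reads. The deposited percent equals the truncated ratio of the counts, and percent was recomputed from the deposited counts.

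Groups came from the labelled time. Replicates were numbered in accession order and pair no samples. Separate animals are not stated in the labels, and p-values then measure only the spread of these libraries, which may be technical. No interval is given for single values, and reads are not independent molecules.

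Reads were summed per tile over cytosines present in 3 or more libraries of each group. A value needed 15 summed reads. Counts over all 64549 tiles were tested with edgeR 4.0.16 in R 4.3.3 (quasi-likelihood, common dispersion, all 3 groups in one fit, 1 effect per library), and limma 3.58.1 was an alternative. Calls needed a Benjamini-Hochberg adjusted p below 0.05 and 10 points. The test and the promoter match were tested on simulated data, and the set changes were enlarged after a first version with smaller ones gave no calls. Python 3.11.15, numpy 2.4.6, pandas 2.3.3 and matplotlib 3.10.9 were used. The tiles, lists, tests and rules for names were chosen with earlier results of these data known. Tiles were named as those with the largest differences for each contrast, the most listed cytosines, the largest SD or the most reads, and those next to the 70% threshold. Tiles named for a difference from NSC needed groups that did not overlap, except where they were named after their values were seen. Promoters were placed by CpG spacing with at least 16 matched cytosines at exactly 1 position. That match, the check over every listed cytosine and some names were added after seeing the data, as stated with each. Alternatives were 10 reads per cytosine, cytosines in all 13 libraries, leaving out coverage above the 99.9th percentile, 5 cytosines per tile, thinning to 5 reads, limma, centring, 25 points and leaving out each library.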

Additional observations from a re-analysis of the deposited data

Results flagged for a closer look

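In groups of 4 or 5 libraries, a value was marked where its gap to the nearest other library was a large part of the range of the group. Of 129 groups of values examined in the named tiles and the medians of the set, 9 were marked, and chance alone marks about 1 in 20. That rate need not hold here, since many of the tiles were named for a large SD or a large difference.

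In week 1 libraries, chr16:68607001-68608000 had 1 library at 90.6%, against 95.3% to 95.9% in the others. The tile chr3:160573001-160574000 had 1 at 90.2%, against 79.7% to 80.4%. The tile chr3:33829001-33830000 had 1 at 53.2%, against 65.8% to 67.8%. The tile chr3:977001-978000 had 1 at 60.7%, against 88.5% to 92.3%, and chr6:126837001-126838000 had 1 at 88.5%, against 97.1% to 98.4%.

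In day 1 libraries, 3 tiles were marked for day 1 replicate 2, the shallowest library. They were chr13:27202001-27203000 at 83.6%, against 92.7% to 94.0% in the others, chr19:9197001-9198000 at 55.2%, against 76.9% to 84.9%, and chr3:977001-978000 at 73.9%, against 86.4% to 89.2%. In NSC libraries, chr1:245175001-245176000 had 1 library at 70%, against 90.5% to 91.1%, which made it a tile next to the threshold of the rule.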

How the results depend on the processing

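For week 1 minus day 1 there were 0 calls in the set under every alternative run, with each library left out as well. The median difference ran from -1.60 to -0.946 points with 1 library left out, and turned to 1.71 points after centring each library. For day 1 minus NSC the 75 calls among 2229 tiles became 19 at 25 points and 305 with limma after centring. Other settings left fewer tiles in the fit. There were 42 calls among 595 tiles at 10 reads per cytosine and 7 among 163 with cytosines in all 13 libraries. These counts are not a loss of calls at a fixed number of tiles, and their shares over all tiles are not given here. With 1 library left out the calls ran from 37 (without day 1 replicate 1) to 81. The median of day 1 minus NSC ran from 2.63 to 3.12 points with 1 library left out and turned to -6.60 after centring. For week 1 minus NSC the 31 calls among 2229 tiles became 13 at 25 points, 72 with limma and 78 with limma after centring. There were 8 calls among the 163 tiles with cytosines in all 13 libraries. With 1 library left out the calls ran from 15 (without week 1 replicate 4) to 35. The median of week 1 minus NSC ran from 1.16 to 1.65 points, was 0.325 in the 163 tiles of cytosines present in all 13 libraries and turned to -5.19 after centring. The set of 2229 tiles numbered 322 with 60 or more listed cytosines, and 1580 to 2704 under the other settings. Of 1368 recomputed differences of named tiles 50 lost a call, 12 moved by more than the spread between libraries and none changed sign after a call. A pair of alternatives was chosen after seeing the data. In the 2166 tiles at 70% or more over every listed cytosine the medians were -1.30 points for week 1 minus day 1, 1.23 for week 1 minus NSC and 2.81 for day 1 minus NSC. With at least 20 matched cytosines, 6 of 9 germline promoters were at 70% or more in NSC, beside 7 of 10. No paired analysis was possible because replicate numbers were given in accession order and pair no samples. Centring and the numbers of tiles and libraries entering a fit differ by construction, and beyond that the cause was not tested. Single tiles often rest on 3 to 6 cytosines, which limits what depth can show.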
